A study of Mus musculus with 4 samples.

Results

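The genes described here encode the proteins of the cytosolic ribosome. They are the genes whose platform symbol starts with Rpl or Rps followed by a digit, plus the stalk genes Rplp0 and Rplp2 and the small-subunit gene Rpsa, without the Rps6k kinases and without pseudogenes. A gene counted if a probe set named for it alone reached a signal of 500 on at least 1 of the 4 arrays, and each gene took its brightest probe set. Of 48 genes with a matching symbol, 45 passed, among 4645 genes that reached 500 and 12393 named genes in all. The large 60S subunit contributed 23 genes and the small 40S subunit 22. Rpl12, which peaked at 409, Rpl14, which peaked at 420, and Rpl3l, the muscle paralog of Rpl3, which peaked at 36.2, were left out. Just inside the limit were Rps25 with a peak of 665 and Rps6 with a peak of 696. A further 30 ribosomal protein symbols occurred only on probe sets listed for several genes and are not described by name.

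The study used primary fibroblasts grown from e14.5 mouse embryos. Their genotype was either wild type or tri-CH1, in which the CH1 domain is deleted from 2 alleles of p300 and 1 allele of CBP. CH1 is a protein-docking module of these related transcriptional coactivators, and the hypoxia-inducible factor HIF-1α is known to bind it. Each genotype spent 6 h at 21% oxygen (normoxia) or at 0.1% oxygen (hypoxia), in fresh medium equilibrated beforehand to the same gas, with 5% CO2 at 37 °C. There was 1 array for each of these 4 groups. No value below therefore has a replicate error and nothing was tested: a difference between arrays may come from the culture, the embryos or the array. The number of arrays limits the precision.

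Each ribosome carries 1 copy of most of its proteins, so their genes are expressed at high and similar levels in growing cells. Their mRNAs begin with a run of pyrimidines, the 5' TOP motif, through which the mTOR pathway sets their translation, and low oxygen is known to lower mTOR activity and ribosome production. This control acts on translation, which an array does not measure. Several members have paralogs whose expression depends on the tissue, such as Rpl39l, which is best known from male germ cells, and Rpl22l1.

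The start sites of members and of their paralogs are shown first, because both members called in any comparison below, Rpl39l and Rps27, belong to paralog pairs. RefSeq promoters (GRCm38.p6) were matched for 39 of the 45 members and not for Rpl7, Rpl8, Rps4l, Rps14, Rps20 and Rps29. Each gene took 1 annotated start, the one farthest upstream, which need not be its main start. Each line gives 30 bases, 15 before the annotated start and 15 from it on, read 5' to 3' on the gene's strand, with every CTTTC, a form of the pyrimidine run, in capitals.
Rpl39l (chr16:10170213-10170242, plus strand): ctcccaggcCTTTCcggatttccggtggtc
Rpl39 (chrX:37085208-37085237, minus strand): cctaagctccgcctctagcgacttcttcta
Rps27 (chr3:90213634-90213663, minus strand): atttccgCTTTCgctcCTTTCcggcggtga
Rps27l (chr9:66946071-66946100, plus strand): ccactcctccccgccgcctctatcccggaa
Rpl22 (chr4:152324421-152324450, plus strand): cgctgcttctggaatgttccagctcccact
Rpl22l1 (chr3:28805493-28805522, plus strand): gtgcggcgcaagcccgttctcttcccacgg
Rpl35 (chr2:39005117-39005146, minus strand): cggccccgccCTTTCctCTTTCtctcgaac
Rps18 (chr17:33955651-33955680, minus strand): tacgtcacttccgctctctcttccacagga
Rps10 (chr17:27635230-27635259, minus strand): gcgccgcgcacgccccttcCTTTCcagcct
Rplp2 (chr7:141447636-141447665, plus strand): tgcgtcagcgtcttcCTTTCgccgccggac
Rpl35, Rps18, Rps10 and Rplp2 are bright members shown for comparison with the paralog pairs. CTTTC on the sense strand occurred within 20 bases of the annotated start in 11 of 39 members, or 28.2%, against 5.40% of 27025 promoters. A member without CTTTC can hold another pyrimidine run, as the window of Rps18 does. CCGGAA, a site form of the ETS transcription factors, occurred on either strand within the 300 bases in 25 members, or 64.1%, against 15.2% of all promoters. The reverse complement of CCGGAA can share bases with CTTTC and does so in the windows of Rpl39l and Rps27. ACGTG, a core of the HIF binding site, occurred on either strand in 8 members, or 20.5%, against 19.6% of all promoters. These matches describe letters near an annotated start; binding was not measured.

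Rpl39l was lower on the tri-CH1 arrays and Rpl39 was not, as given below, so the 100 bases up to and including the base before the annotated start are given for both, with CCGGAA in capitals.
Rpl39l (chr16:10170128-10170227, plus strand): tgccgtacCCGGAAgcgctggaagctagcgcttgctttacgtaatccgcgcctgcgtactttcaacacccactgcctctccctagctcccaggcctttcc
Rpl39 (chrX:37085223-37085322, minus strand): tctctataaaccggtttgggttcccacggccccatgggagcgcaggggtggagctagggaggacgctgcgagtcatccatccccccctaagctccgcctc
The stretch of Rpl39l holds CCGGAA once, while the match of Rpl39 lies elsewhere in its 300 bases.

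Ribosomal protein mRNAs were among the brightest on every array. The median member had a signal of 18388 in wild-type normoxia, 18718 in wild-type hypoxia, 17678 in tri-CH1 normoxia and 16964 in tri-CH1 hypoxia. On each array 32 of the 45 members exceeded 10000, and none was below 200. Together the 45 genes made up 7.30%, 7.47%, 7.91% and 7.11% of the summed signal of all named genes, in the same order. The brightest was Rpl41, which encodes the smallest ribosomal protein, at 33388, 40305, 47022 and 42209. Next by mean signal came Rps2, Rps28, Rpl4 and Rps10. The dimmest were Rps25, Rps6, Rps27, Rpl39 and Rpl27a. Probe sets bind their targets to different degrees, so a dim probe set does not show a scarce mRNA, and signals of different genes were not compared further. Of the 45 probe sets, 15 have the suffix _x_at and 1 _s_at, which mark probes that may also match other transcripts, and ribosomal protein genes have many processed pseudogenes.

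**Figure D1:**
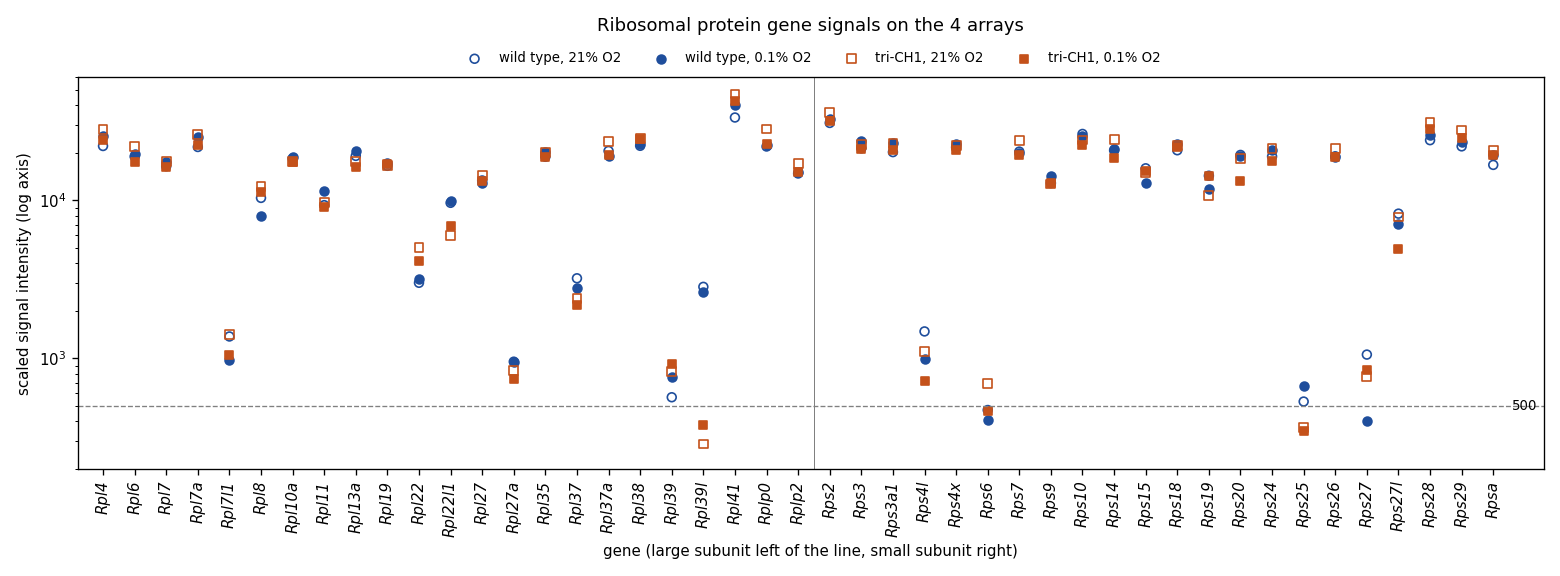
Scaled signal of each of the 45 ribosomal protein genes on each array, on a log axis, with 1 symbol per array and the limit of 500 dashed. Most genes lie above 10000 with the 4 arrays close together, and Rpl39l and Rps27 show the widest gaps between arrays.

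The cells carried fibroblast markers on every array. Of 13 fibroblast markers, 12 reached 500 on an array, and their summed signal ran from 129339 in wild-type hypoxia to 152486 in tri-CH1 normoxia; in tri-CH1 normoxia and hypoxia Thy1 was lower, at 3837 and 3274 against 13148 and 12389, while Lum was higher, at 1562 and 2684 against 355 and 419, and Col3a1 read 15155 and 15169 against 10432 and 9564. Of 6 macrophage and blood markers, Csf1r and Lyz2 reached 500, with a summed list signal of 1885 to 2476 over the arrays, and the pan-leukocyte gene Ptprc stayed under 200. No endothelial (of 4), epithelial (of 4), muscle (of 4), neural (of 4) or erythroid marker (of 2 named) reached 500. All 6 HIF targets checked rose at least 2-fold in both genotypes, among them Bnip3, a mitophagy receptor gene, by 26.2-fold and 21.1-fold. The scale factors were 3.46, 6.73, 10.3 and 8.70 and the scaled background 139, 246, 343 and 393 in the array order above. The wild-type normoxia array came from a different manufacturing lot. It enters the hypoxia change in wild type and the genotype difference in normoxia, where lot and condition cannot be told apart. Through these it also enters the difference of the hypoxia changes between the genotypes.

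In wild-type cells the ribosomal protein mRNAs read close to their normoxic level under hypoxia, on arrays each scaled to a target of 500. The values are therefore relative to the other signals of the array. A gene was called when it differed 2-fold or more, which is 1 on the log2 scale, and the brighter of the 2 arrays had 500; signals under 200 were first raised to 200. Of the 44 members that could be called, 0 rose and 1, Rps27, fell. Among all 4125 genes that could be called, 3.05% rose and 1.19% fell. The members' median log2 change was 0.05, with 29 values above 0 and 15 below, against a median of -0.06 over all genes; under 2 of 14 processing alternatives the members' median was below 0, down to -0.03. The interquartile range was 0.185 for the members and 0.447 for all genes. It was 0.174 for initiation factors, 0.216 for elongation factors and other TOP mRNAs and 0.299 for other genes with a mean signal of 5000 or more. In bulk RNA, fewer cells of a type and less RNA per cell cannot be told apart.

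The highest wild-type values under hypoxia were those of Rpl39, Rps25, Rpl11, Rpl41 and Rpl7a. Rpl11, which binds and inhibits the p53 regulator Mdm2 when ribosome assembly is disturbed, read 9313 in normoxia and 11484 in hypoxia, a log2 change of 0.30. Rpl7a, a core protein of the large subunit, read 21739 and 25267, a log2 change of 0.22. The lowest values after Rps27 were those of Rps4l at -0.58, Rpl7l1 at -0.50, Rpl8 at -0.38 and Rps15 at -0.30. The other bright probe set of Rps15 gave 0.11. Rpl8, a protein near the catalytic centre of the large subunit, read 10355 and 7959. None of these passed 2-fold.

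In tri-CH1 cells, 0 of 43 members rose and 0 fell under hypoxia, against 3.19% and 0.987% of 4358 genes. The small shifts leaned downward: 35 members lay below 0 and 8 above, with a median of -0.14 against -0.04 over all genes. The share of members below 0 was 81.4%, and that of all genes 54.1%. Both subunits showed it, with medians of -0.13 for the large and -0.15 for the small subunit. The other 258 genes with a mean signal of 5000 or more had a median of -0.0024. The lean was not particular to the members. The share below 0 was 90.9% for proteasome subunit genes, 90% for ribosome assembly genes and 80% for mitochondrial ribosomal protein genes. It was 62.5% for initiation factors and 53.3% for elongation factors and other TOP mRNAs. The 9 bacterial and phage control probe sets, whose transcripts are added to the sample in fixed amounts at hybridization, were all lower on the tri-CH1 hypoxia array than on its normoxia array, with a median log2 difference of -0.40; their part in the members' shift was not tested.

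The lowest tri-CH1 values were those of Rps27l at -0.68, Rps4l at -0.61, Rps6 at -0.59, Rps20 at -0.47 and Rpl7l1 at -0.43. Rps20, a small-subunit head protein, read 18358 in normoxia and 13274 in hypoxia, while the wild-type arrays read 19357 and 19020. Rps6, the small-subunit protein phosphorylated downstream of mTOR, was measured by a dim probe set at 696 and 463. The brightest probe set that the platform lists for both Rps6-ps4 and Rps6 read 35172 and 35505, a log2 change of 0.01. The next brightest of these shared probe sets gave -0.12, and dimmer ones gave values down to -0.86. Which transcripts each binds was not measured here. At the other end, Rps19, the gene most often mutated in Diamond-Blackfan anaemia, read 10668 in normoxia and 14219 in hypoxia, a log2 change of 0.41, while in wild type it read 14295 and 11703, a change of -0.29. The Rps19 arrays thus overlap between genotypes, with wild-type normoxia and tri-CH1 hypoxia high.

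Taken as the difference of the hypoxia changes, tri-CH1 minus wild type, 1 of 45 members was past 1 log2 unit upward (Rps27) and 0 downward, against 1.77% and 1.46% of 4645 genes. The median difference was -0.22 over the members and 0.03 over all genes, and 37 members, or 82.2%, were below 0 against 47.0% of all genes. Of 15 genes for elongation factors and other TOP mRNAs, 12 were below 0 as well, with a median of -0.15. Medians were -0.13 for proteasome subunit genes and -0.03 for initiation factors. They were 0.04 for mitochondrial ribosomal protein genes and 0.12 for ribosome assembly genes. These lists were not tested against each other. The lowest members were Rps27l, Rps20, Rps14, Rpl7a and Rpl4, between -0.45 and -0.44. The other probe sets of Rps27l, of similar brightness, gave 0.54 and -0.22. The other bright probe sets of Rps20 and Rps14 gave -0.39 and -0.47. Rps14 is a platform protein of the small subunit and Rpl4 lines the exit tunnel of the large one. The highest after Rps27 with signals above background were Rps19 at 0.70, Rps15 at 0.33 and Rpl8 at 0.25, but the other probe set of Rps15, also bright, gave -0.19. The 9 control probe sets had a median difference of -0.33, with 8 of them below 0, and the other bright genes a median of -0.02.

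**Figure D2:**
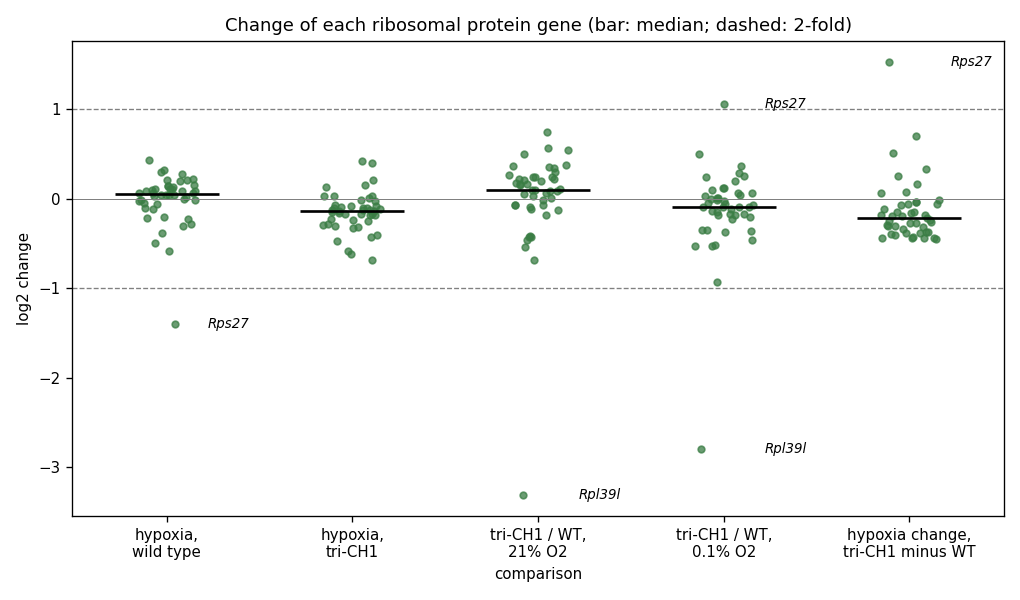
Log2 change of each of the 45 ribosomal protein genes in the 4 comparisons and in the difference of the hypoxia changes; bars mark medians over genes that could be called and dashed lines 2-fold. The points lie in a narrow band around 0 except Rps27 and Rpl39l.

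Between the genotypes Rpl39l and Rps27 were the members past 2-fold, shares near those over all genes. In normoxia 0 of 45 members were higher in tri-CH1 and 1, Rpl39l, was lower, against 3.16% and 3.48% of 4333 genes. In hypoxia 1 of 44 was higher (Rps27) and 1 lower (Rpl39l), against 3.76% and 3.31% of 4233 genes. The members' median was 0.09 in normoxia, with 30 above 0, and -0.09 in hypoxia, with 15 above 0, while all genes had 0.03 and 0.05. The sign of the members' median turned under 1 of 14 alternatives in normoxia, to -0.13 when the arrays were scaled to the same median, and under 2 in hypoxia, up to 0.03. The 9 control probe sets had medians of 0.18 and -0.07 in these comparisons; their part in the members' values was not tested. The fibroblast markers Thy1 and Lum and the marker sums given above also differ between the genotypes, and their part was not tested.

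Rpl39l, the paralog of the exit-tunnel protein gene Rpl39, read 2834 in wild-type normoxia and 2619 in wild-type hypoxia, but 287 in tri-CH1 normoxia and 378 in tri-CH1 hypoxia. Both wild-type arrays were high and both tri-CH1 arrays were low, under the limit of 500 and under the scaled background of 343 and 393 of these arrays, so a ratio to them has only a lower bound. Set against that background, the signal in wild type was at least 8.26-fold higher at 21% oxygen and at least 6.66-fold higher at 0.1%. These bounds rest on 1 probe set and 1 array per group. The log2 values of -3.30 and -2.79 plotted for Rpl39l were computed from the low signals as for every other gene. Its hypoxia change in wild type was -0.11, and none is given for tri-CH1. Rpl39 itself read 568, 768, 828 and 916 in the same order on a dim probe set, log2 genotype differences of 0.54 and 0.26. A bright probe set listed for both Gm32211 and Rpl39 read 21447, 21095, 19449 and 20552, with genotype differences of -0.14 and -0.04 and a wild-type hypoxia change of -0.02, where the dim one gave 0.44.

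Rpl39l lies on chromosome 16, as does the gene for CBP, with 27 other measured genes between them. Of the 20 measured genes nearest to Rpl39l, 10 on each side, 5 reached 500: Pmm2, Carhsp1, Usp7, Emp2 and Nubp1. Their log2 genotype differences lay between -0.40 and 0.34 over both oxygen levels, and none passed 2-fold. Of all genes, 3.16% were higher and 3.48% lower in tri-CH1 in normoxia, and 3.76% and 3.31% in hypoxia. At such shares no call among 5 genes is the usual outcome, and the dimmer neighbours could not be called. Whether the region differs between the genotypes was not tested.

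The Rpl22 pair differed between the genotypes in opposite directions, without either passing 2-fold. Rpl22, a large-subunit protein dispensable for most translation but needed in developing lymphocytes, read 3007, 3184, 5016 and 4110, so both tri-CH1 arrays were above both wild-type arrays. The log2 differences were 0.74 in normoxia and 0.37 in hypoxia, and its other probe set gave 0.43 and 0.55. Rpl22l1, its paralog, read 9637, 9943, 5993 and 6908, so both tri-CH1 arrays were below both wild-type arrays, with differences of -0.69 and -0.53.

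In the Rpl7 and Rps4x pairs no member passed 2-fold. Rpl7 read 16425, 17437, 17513 and 16294, and Rpl7l1, its paralog, read 1375, 976, 1421 and 1057. Rpl7l1 was thus lower in hypoxia in both genotypes, by log2 changes of -0.50 and -0.43, and its other probe set gave -0.31 and -0.76. Rps4x, the X-linked small-subunit gene, read 21629, 22628, 22078 and 20902. Rps4l, its paralog, read 1481, 990, 1101 and 719, which was lower in hypoxia in both genotypes by -0.58 and -0.61 and lower in tri-CH1 at both oxygen levels by -0.43 and -0.46.

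**Figure D3:**
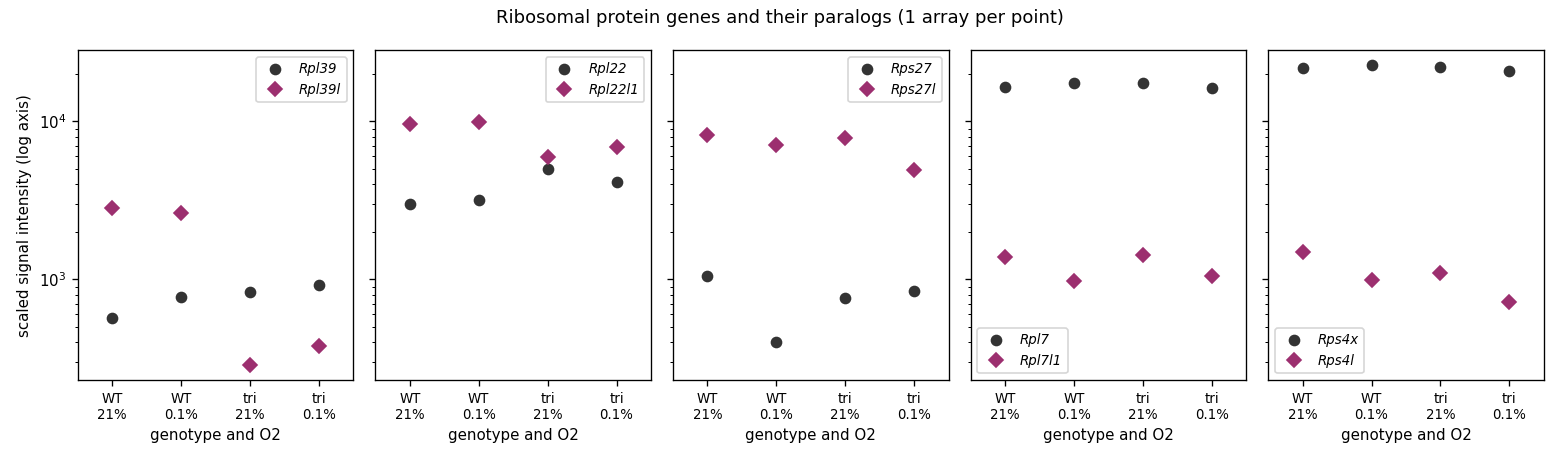
Signals of 5 ribosomal protein genes and their paralogs on the 4 arrays, on a log axis, 1 point per array. Rpl39l lies at 2834 and 2619 on the wild-type arrays and at 287 and 378 on the tri-CH1 arrays, while Rpl39 stays between 568 and 916.

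Rps27, a zinc-finger protein of the small subunit, read 1057 in wild-type normoxia, 402 in wild-type hypoxia, 767 in tri-CH1 normoxia and 838 in tri-CH1 hypoxia. The wild-type hypoxia array was the low one and the other 3 lay between 767 and 1057. Rps27 was thereby 2.63-fold lower in wild-type hypoxia than in normoxia, a log2 change of -1.40, with 0.13 in tri-CH1. The genotype differences were -0.46 in normoxia and 1.06 in hypoxia, and the difference of the hypoxia changes was 1.52. The call in hypoxia was lost, at 0.98, when the arrays were scaled to the same median, and it was not made with a minimum signal of 1000. A second, bright probe set that the platform lists for both Rps27rt and Rps27 read 17758, 18424, 20756 and 18190, with hypoxia changes of 0.05 and -0.19 and genotype differences of 0.23 and -0.02. The fall was seen on the dim probe set and not on the bright one, and which transcripts each binds was not measured here.

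Rps27l, the paralog of Rps27 and a known p53 target, read 8232, 7041, 7839 and 4894, with tri-CH1 hypoxia low. Its hypoxia change of -0.68 in tri-CH1 came to -0.45 and 0.10 on its other probe sets. Other members also differed between probe sets. Rpl41 had a genotype difference of 0.49 in normoxia on its brightest probe set and 1.09 on its next, which read 18034, 19800, 38479 and 20676. Rps25, a small-subunit protein used in some internal initiation, read 533, 665, 366 and 349, with genotype differences of -0.54 and -0.93; the latter came to -1.01, past 2-fold, under the median scaling, and its tri-CH1 hypoxia signal of 349 is under that array's scaled background of 393.

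The brighter members were closer to each other than the dimmer ones. Over the 35 members with a mean signal of 5000 or more, 0 passed 2-fold in any comparison on their brightest probe sets. Their log2 values ran from -0.38 to 0.30 for hypoxia in wild type and -0.68 to 0.41 for hypoxia in tri-CH1. They ran from -0.69 to 0.49 for genotype in normoxia and -0.53 to 0.49 for genotype in hypoxia. On the brightest probe sets all calls fell among the 10 dimmer members. Some other probe sets of the brighter members did pass 2-fold. For genotype in normoxia, Rpl41 had 1.09 on its next brightest probe set and Rps10 had -1.32 on a dimmer one. That Rps10 probe set had -1.20 for hypoxia in wild type, and a dim one of Rpl37a had 1.52 for genotype in hypoxia. The interquartile range was 0.155 for the brighter and 0.578 for the dimmer members for hypoxia in wild type, and 0.244 and 0.873 for genotype in normoxia. Over the 19 members with at least 2 usable probe sets, the SD between probe sets of a gene was 0.138 and 0.252 for the hypoxia changes and 0.230 and 0.192 for the genotype differences.

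The hypoxia changes of the 2 genotypes, which share no array, were weakly alike over the 45 members, with Pearson's r of 0.06 and Spearman's rho of 0.19. The genotype differences at the 2 oxygen levels, which share no array either, had r of 0.80 and rho of 0.53. Rpl39l and Rps27 weighed on both: without them r was 0.35 and 0.65, and rho 0.32 and 0.59. Over all 4645 genes r was 0.61 for hypoxia and 0.70 for genotype. Members share the arrays, so these figures are descriptions.

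**Figure D4:**
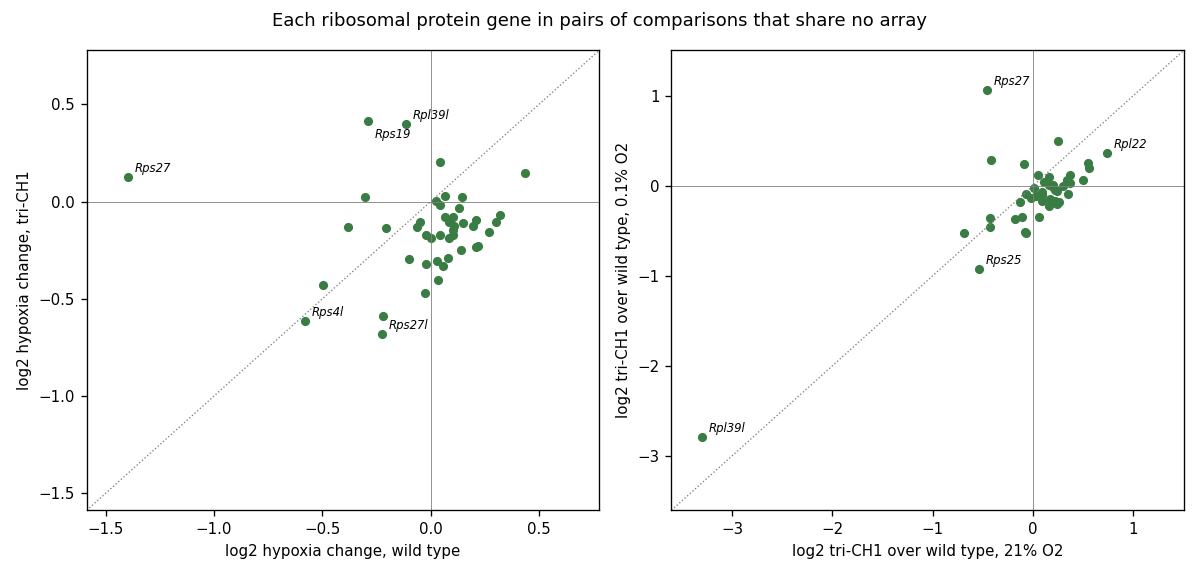
Each of the 45 ribosomal protein genes by its hypoxia change in each genotype (left) and by its genotype difference in normoxia and in hypoxia (right), all log2; the dotted line marks equal values. Most genes cluster near 0 on the left, and Rpl39l lies far below 0 on both axes on the right.

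Genes that work with the ribosome were set beside its proteins. Of 16 genes for elongation factors and other TOP mRNAs, 15 reached 500; 0 were called in any of the 4 comparisons, and their medians were 0.16 and -0.04 for hypoxia and 0.14 and 0.05 for genotype. Eef1a1, which brings aminoacyl-tRNA to the ribosome, read 40619, 45627, 56623 and 48126. Fau, a small-subunit gene outside the symbol rule, read 13893, 16941, 16670 and 18136. Of 24 initiation factor genes at 500, 23 could be called by genotype in hypoxia and 1 of these was lower, Eif2b2, a subunit of the eIF2 exchange factor, at -1.07, against 3.31% of all genes; none was called in the other 3 comparisons.

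Genes of ribosome assembly had lower values under hypoxia than the genes of the ribosomal proteins themselves. Their median log2 changes were -0.46 for wild type and -0.34 for tri-CH1, where the ribosomal protein genes had 0.05 and -0.14. In wild type 5 of 28 fell, against 1.19% of all genes: the snoRNP proteins Nop56 (-1.08) and Nop58 (-1.12), the assembly factor Rrs1 (-1.68), the pre-rRNA processing protein Rcl1 (-1.61) and the rRNA methyltransferase Nop2 (-1.31). Rcl1 read 163 in wild-type hypoxia, which was raised to 200 and lay under that array's scaled background of 246. Nop58 read 261 there, near that background. In tri-CH1 2 of 30 fell, Nop58 (-1.10) and Nop16 (-1.02), against 0.987% of all genes. Their hypoxia signals there were 416 and 345, against a scaled background of 393 on that array. The 65 mitochondrial ribosomal protein genes had medians of -0.24 and -0.22, and the 33 proteasome subunit genes, shown as another complex of many subunits, -0.10 and -0.25. The differences between lists were not tested.

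**Figure D5:**
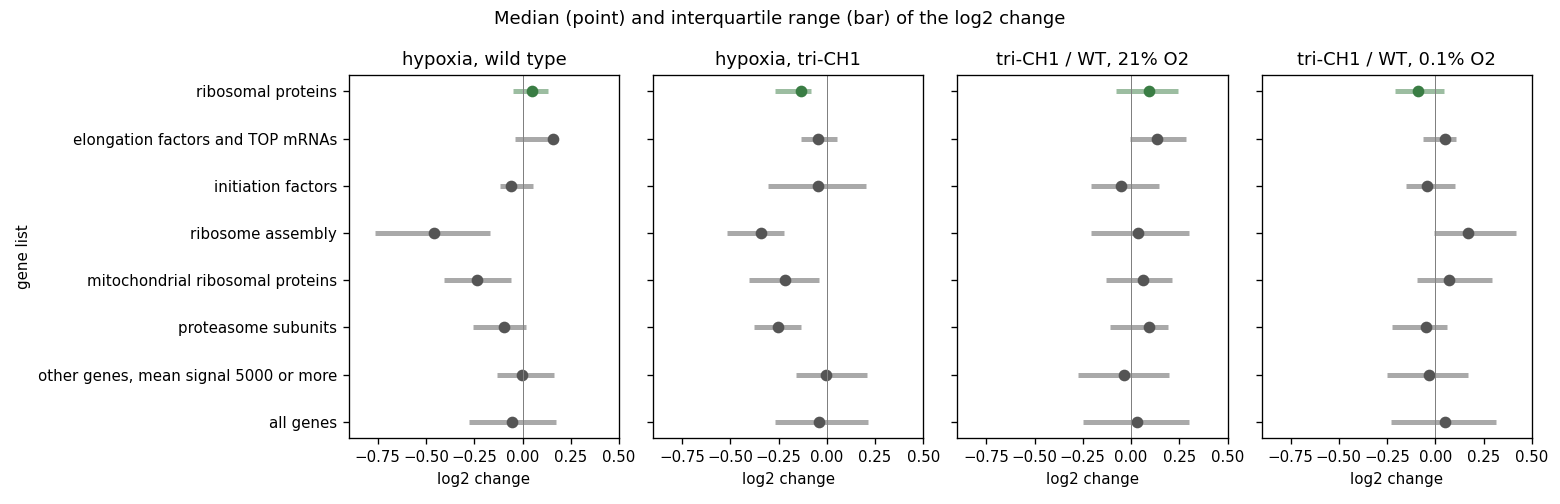
Median and interquartile range of the log2 change for the ribosomal protein genes and for comparison lists, in each of the 4 comparisons. The ribosomal protein genes lie near 0 with a short bar, and the ribosome assembly genes have medians of -0.46 and -0.34 under hypoxia.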

How the data were processed

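Total RNA of 4 samples was measured on Affymetrix mouse arrays, 1 array per group. The authors summarised each probe set as a signal intensity by Affymetrix's statistical algorithm, scaling every array to a target of 500, per the labels. The deposited intensity values are linear. Which software was used is not given in the sources used here. Over the arrays, the Gapdh 3' to 5' ratio was 0.633 to 0.751 and the Actb ratio 1.23 to 1.43.

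Probe sets with 1 gene symbol in the platform annotation were used (20380 of 22690), and each gene took the one with the highest mean signal. Signals under 200 were raised to 200, and log2 differences were computed from the deposited values. Calls needed 2-fold and 500 on the brighter array. The difference of hypoxia changes was called at 1 log2 unit. With 1 array per group no test was run, and a fold change therefore has no error. The calling step was checked on simulated data, with changes planted only in brighter genes and the same spread at every signal. That check does not bear on calls from dim probe sets such as that of Rps27.

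The members and lists were chosen with earlier results of these data known. Named were members called in any comparison, the 5 highest and 5 lowest in each comparison, the 5 brightest and 5 dimmest, paralog pairs, stalk genes and called genes of the other lists. Alternatives were other floors, minimum signals, normalizations and choices of probe set. Python 3.11.15, numpy 2.4.6, pandas 2.3.3, matplotlib 3.10.9, and limma 3.58.1 in R 4.3.3 were used.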

Additional observations from a re-analysis of the deposited data

Results flagged for a closer look

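Rps27 stood out because its hypoxia values had opposite signs in the 2 genotypes, -1.40 for wild type and 0.13 for tri-CH1, and its genotype differences had opposite signs at the 2 oxygen levels, -0.46 in normoxia and 1.06 in hypoxia. With 1 array per group the difference between the genotypes was not tested. All 4 values come from 1 dim probe set and share the same 4 arrays, and the low value is that of a single array, wild-type hypoxia.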

How the results depend on the processing

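No paired analysis was possible because each group has 1 array. Calls were recomputed under 11 alternatives. In hypoxia, the count of members higher in tri-CH1 was 0 instead of 1 with a minimum of 1000 and 0 with scaling of the arrays to the same median, where Rps27 came to 0.98. Under that scaling 2 members instead of 1 were lower in hypoxia, Rps25 being the added one at -1.01. The other counts of calls were the same under all 11. The members' median kept its sign under all 14 alternatives, 3 of which were chosen after seeing the data, for hypoxia in tri-CH1 (-0.16 to -0.07) and for the difference of the hypoxia changes (-0.23 to -0.07). It changed sign under 2 for hypoxia in wild type (-0.03 to 0.07), under 1 for genotype in normoxia (-0.13 to 0.16) and under 2 for genotype in hypoxia (-0.17 to 0.03). Scaling to the same median moved the median of all genes to -0.14, 0.04, -0.21 and -0.04 in the 4 comparisons. Rpl39l, computed from tri-CH1 signals under the scaled background, lay between -3.52 and -2.82 in normoxia and between -2.87 and -2.71 in hypoxia. Where probe sets of a gene were averaged, the normoxic genotype difference of Rpl41 went from 0.49 to 0.98. The cause was not tested. Signals near or under the scaled background, as for Rpl39l in tri-CH1, Rps27, Rps25, Rcl1, Nop58, Nop16 and Mrpl33, limit the precision of those folds.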

Other observations

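Over all 81 probe sets named for a single member and reaching 500, the median log2 values were 0.04 and -0.13 for hypoxia in wild type and tri-CH1 and 0.09 and -0.11 for genotype in normoxia and hypoxia, and 62 of the 81 were below 0 for hypoxia in tri-CH1. The 86 probe sets at 500 that list a ribosomal protein symbol with others had medians of 0.04, -0.11, 0.08 and -0.07. A dimmer probe set of Rps10 read 4210, 1829, 1682 and 1591, wild-type normoxia being high, while the brightest Rps10 probe set read between 22397 and 26272. A dim probe set of Rpl37a read 544, 307, 1057 and 877, with both tri-CH1 arrays above both wild-type arrays, while its brightest read between 19156 and 23603.

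The stalk genes and Rpsa were alike in their highest array. Rplp0, the stalk base, read 21891, 22345, 28264 and 22862, Rplp2, a stalk tip protein, read 14772, 15199, 17000 and 15068, and Rpsa, which also binds laminin at the cell surface, read 16744, 19350, 20636 and 19341. Each was highest in tri-CH1 normoxia, as was the summed signal of the 45 members. This was not particular to them: Rpl4, Rpl41 and Rps2 were among the other members highest there. Rps10, Rps15 and Rps19 were instead highest in wild-type normoxia. The brightest control probe sets for the phage gene cre were highest on the tri-CH1 normoxia array too, and their part in these values was not tested. In the difference of the hypoxia changes, 2 of 65 mitochondrial ribosomal protein genes were past 1 log2 unit downward, Mrpl33 at -1.17 and Mrps30 at -1.11, against 1.46% of all genes. Mrpl33 read 306 in tri-CH1 hypoxia, under that array's scaled background of 393. In the same difference 2 of 30 ribosome assembly genes were past 1 log2 unit upward, Rrs1 at 1.22 and Rcl1 at 1.21, against 1.77% of all genes. The Rcl1 value rests on its wild-type hypoxia signal of 163, raised to 200 and under that array's scaled background of 246.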
